A study of Mus musculus with 9 samples.

Results

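The genes described here are 9 secreted proteins that make, keep alive or attract granulocytes and macrophages: the colony-stimulating factors Csf1, Csf2 and Csf3, the chemokines Cxcl1, Cxcl2, Cxcl3 and Cxcl5, and the cytokines Il6 and Lif. They are 9 of the 18193 genes that the array measured with at least 1 probe set annotated to a single gene. They were chosen by name, with earlier results of these data known. They were read by 15 probe sets: 4 for Csf1, 3 for Cxcl1, 2 for Lif and 1 for each of the others. Where a gene had several, the brightest probe set by its average across the 9 arrays gave the main value. All 9 genes passed the filter on dim probe sets and entered the test.

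RNA came from primary mammary tumours grown from 3 mouse cell lines, labelled 67NR/CMVLUC, 66cl4/CMVLUC and 4T1/CMVLUC, with 3 mice per line and 1 array per mouse. Every host was a female BALB/c mouse of 7 to 9 weeks. Each received 1000000 viable cells in the fourth mammary gland on the right side, and the tumour was taken out on day 15. Tumour tissue was cut from sections by laser capture before total RNA was prepared. All 3 lines carry the tag CMVLUC, so no group lacks it, and each line is a single model, so a difference between lines is a difference between these 3 models. As background, the 3 lines were derived from 1 spontaneous BALB/c mammary tumour and are widely used because 67NR tumours rarely leave the breast, 66cl4 tumours reach the lung, and 4T1 tumours spread to several organs. The captured tissue holds cancer cells and host cells, and in such bulk RNA a change in the number of cells of a type and a change in the RNA per cell cannot be told apart.

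Colony-stimulating factors act on precursors in bone marrow and on mature myeloid cells: CSF1 on macrophages, CSF2 on granulocytes, macrophages and dendritic cells, and CSF3 on neutrophils. The chemokines CXCL1, CXCL2, CXCL3 and CXCL5 bind the receptor CXCR2 on neutrophils and draw them out of the blood. IL6 and LIF signal through the shared receptor chain gp130 to the transcription factor STAT3. In many cell types several of these genes are switched on by IL-1, TNF or IL-17 through NF-κB, and 4T1 tumours are known for a large excess of blood neutrophils in the host.

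Values are log2 signals as deposited. Array medians lay between 5.51 and 5.58, so the arrays were on 1 scale. A value at or below the highest of 27 control probe sets for bacterial transcripts that were not added, which lay between 4.83 and 5.08 depending on the array, is called background. Over the main probe sets of the genes tested, arrays of 1 line correlated at 0.972 or higher. The number in each array's scan file name was higher for every 67NR array than for any array of the other lines, and the signal of the hybridization controls had its highest values in 67NR (10.87 to 11.47, against 10.64 to 11.10 in 66cl4 and 10.30 to 10.72 in 4T1). The labels do not say what the scan number stands for. Of markers of mammary epithelium, Cdh1, Krt7 and Esrp1 were at background on all 3 arrays of 67NR and of 66cl4 and above it in 4T1. Others were not: Krt8, Epcam and Grhl2 were above background on all 9 arrays. Krt8 was 13.08, 13.17 and 12.78 in 66cl4, close to its 13.47, 13.29 and 13.69 in 4T1.

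The lines differed in nearly all of the 9 genes, but no line was highest in all of them. With limma and Benjamini-Hochberg adjustment over the 13409 genes tested, 8 of the 9 genes differed between 4T1 and 67NR at an adjusted p under 0.05, where 39.9% of all genes did. Of these, 6 were higher in 4T1 (19.4% of all genes) and 2 lower (20.5%), and the 2 lines did not overlap for 8 (49.7%). Between 66cl4 and 67NR 7 of 9 differed, against 36.1% of all genes: 4 were higher in 66cl4 (20% of all genes) and 3 lower (16%), with no overlap for 7 (52.5%). Between 4T1 and 66cl4 8 of 9 differed, against 41.3%: 5 were higher in 4T1 (17.9%) and 3 lower (23.4%), with no overlap for 7 (50.9%). By limma's F-test over the 3 lines all 9 differed, against 56.6% of all genes, and all 9 were called in at least 1 comparison, against 61.3%. In all 3 comparisons at once 5 of the 9 genes differed (Cxcl1, Cxcl3, Cxcl5, Il6 and Lif), against 9.46% of all genes. The genes were chosen with earlier results of these data known, so these counts are descriptions and not a test against the shares of all genes. The comparisons share the arrays of each line, so their results are not independent of each other. Exact permutation of 3 arrays against 3 cannot go below a p of 0.1. Every call therefore rests on limma's model, which joins each gene's own variance with that shared across genes.

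**Figure D1:**
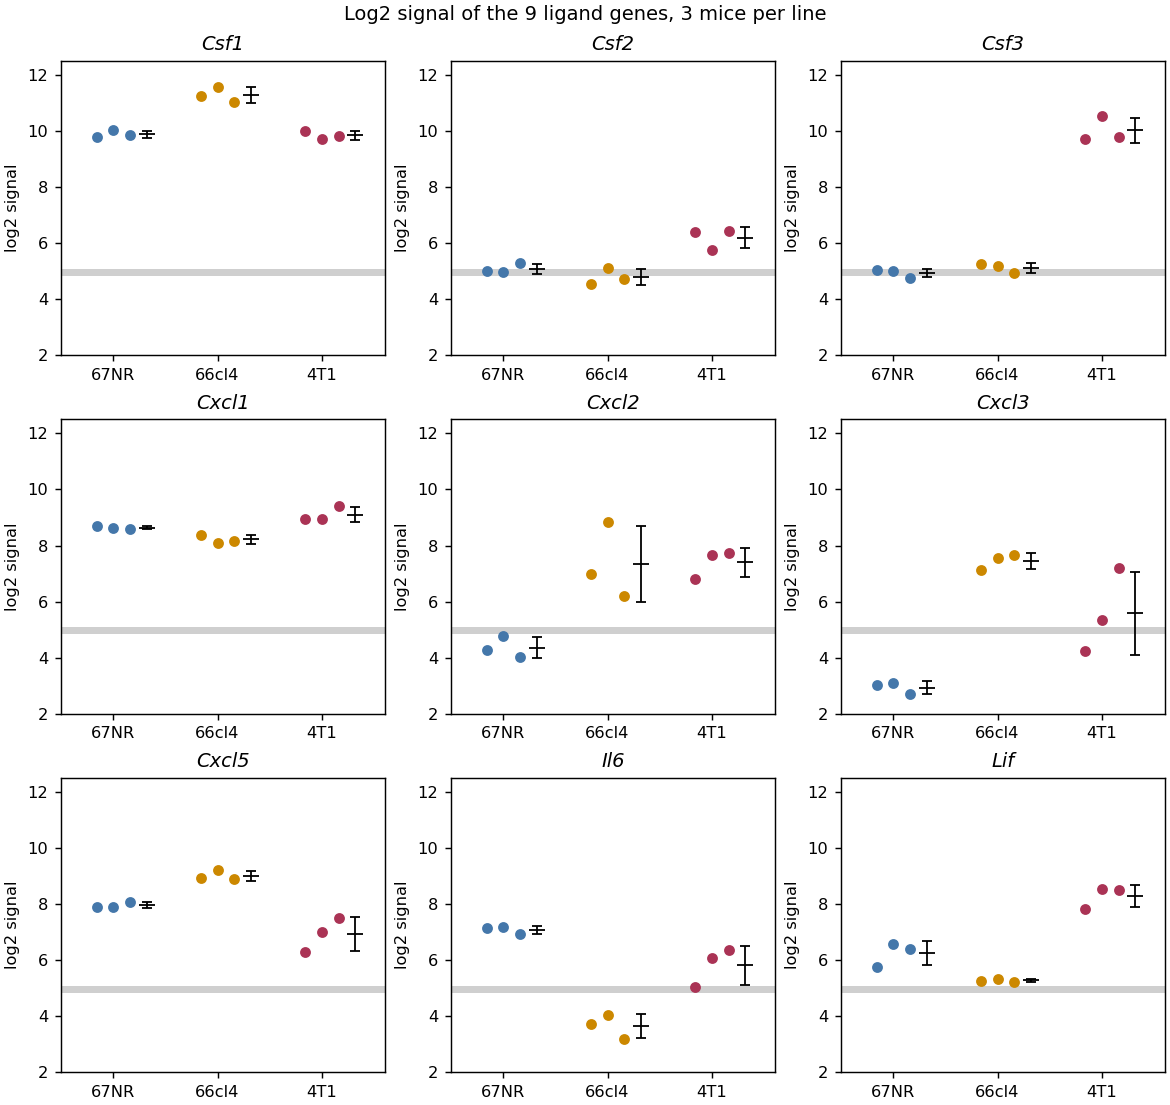
Log2 signal of each of the 9 genes (vertical axes) in the tumours of 67NR, 66cl4 and 4T1, with 1 point per mouse, the mean and SD of 3 mice beside the points, and the background range of 4.83 to 5.08 in grey. Csf3 lay between 9.72 and 10.55 in 4T1 and near background in the other lines, Csf1 was highest in 66cl4, and Il6 was highest in 67NR.

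Csf3, which encodes the growth factor that drives neutrophil production, had the largest difference of the 9 between 4T1 and each other line. Its log2 signal was 9.72, 10.55 and 9.79 in 4T1, 5.03, 5.01 and 4.76 in 67NR, and 5.25, 5.17 and 4.92 in 66cl4. Every 4T1 tumour stood far above the other 6, which lay at or just above background, with 2 of 3 arrays above it in each of those lines. The difference was 5.09 ± 0.21 (SE, log2) between 4T1 and 67NR (limma adjusted p = 1.55e-07), and 4.91 ± 0.21 between 4T1 and 66cl4 (adjusted p = 1.67e-07). Because the lower lines lay at or just above background, no fold is given. Between 66cl4 and 67NR the difference was 0.18, with a 95% interval from -0.28 to 0.65 (adjusted p = 0.536).

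Csf2, which encodes the granulocyte-macrophage factor, was also highest in 4T1, where its probe set read not far above background. It was 6.41, 5.76 and 6.43 in 4T1, 4.99, 4.97 and 5.27 in 67NR, and 4.53, 5.10 and 4.73 in 66cl4. Every 4T1 tumour was above every other tumour, while the values of 67NR were close to background and 1 of 3 arrays of 66cl4 was above it. Csf2 was higher in 4T1 by 1.12 ± 0.21 against 67NR (adjusted p = 0.00190) and by 1.41 ± 0.21 against 66cl4 (adjusted p = 0.000483). The difference between 66cl4 and 67NR was -0.29, with an interval from -0.75 to 0.17 (adjusted p = 0.310).

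Csf1, the macrophage growth factor, followed another order: it was well above background everywhere and highest in 66cl4. Its signal was 11.24, 11.58 and 11.03 in 66cl4, 9.77, 10.03 and 9.86 in 67NR, and 10.00, 9.71 and 9.82 in 4T1. The 66cl4 tumours did not overlap with the others, and those of 67NR and 4T1 overlapped in part. Csf1 was higher in 66cl4 than in 67NR by 1.40 ± 0.15 (adjusted p = 0.000105) and lower in 4T1 than in 66cl4 by 1.44 ± 0.15 (difference -1.44, adjusted p = 6.28e-05). The 4T1 minus 67NR difference was -0.044, with an interval from -0.38 to 0.29 (adjusted p = 0.846). The other 3 probe sets of Csf1 gave the same order for 66cl4, with 66cl4 minus 67NR differences of 0.70, 1.55 and 2.12. They disagreed on 4T1 against 67NR: 1 of them, with a suffix that marks probes shared with other transcripts, was lower in 4T1 by 0.70 (difference -0.70, adjusted p = 0.0126), while the differences of the other 2 probe sets were -0.38 (adjusted p = 0.0501) and -0.15.

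**Figure D2:**
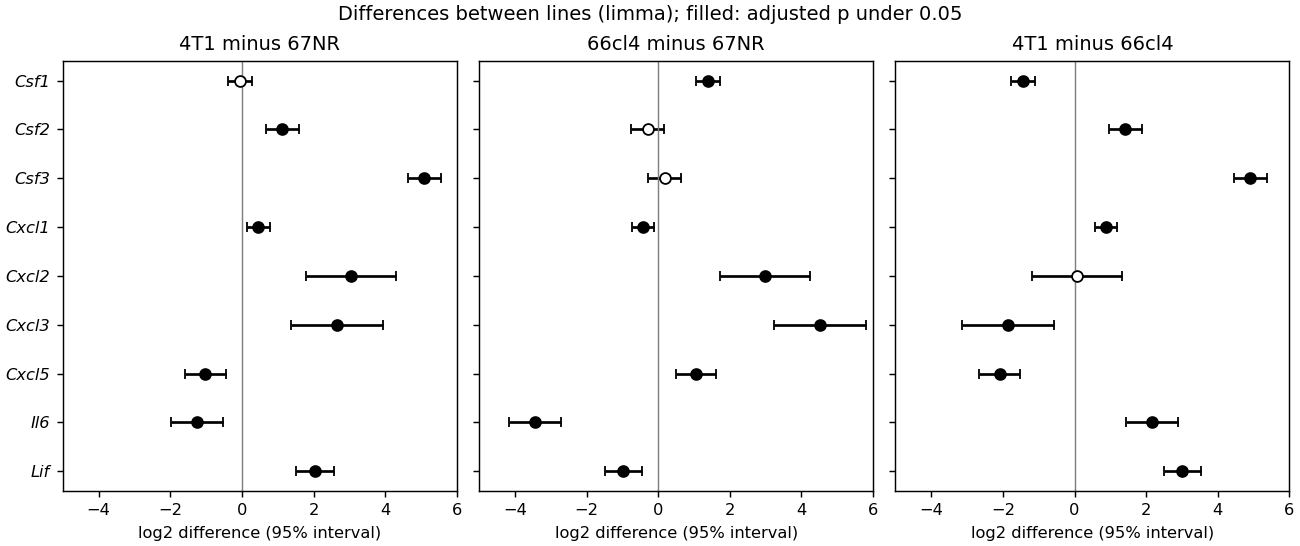
Log2 difference of each gene's main probe set for 4T1 minus 67NR, 66cl4 minus 67NR and 4T1 minus 66cl4, with 95% confidence intervals from the limma fit. Csf3 had the largest positive differences for 4T1 (5.09 and 4.91), and the intervals of Csf1 for 4T1 minus 67NR and of Cxcl2 for 4T1 minus 66cl4 spanned 0.

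The 4 CXCR2 ligands split into 3 patterns. Cxcl2 and Cxcl3 were at background in 67NR and raised in both other lines, Cxcl5 was highest in 66cl4 and lowest in 4T1, and Cxcl1 was expressed in all tumours with its highest level in 4T1. These genes lie in 1 cluster on chromosome 5 and are close relatives, so probes for 1 may also read another. RefSeq promoters (GRCm38.p6, 250 bases before to 50 after the start) were found for 7 of the 9 genes. They are shown for the 3 closest chemokines and for Il6, because these start regions share a match to the kappaB consensus of NF-κB while the genes differed in which line was highest. The consensus was searched on both strands as GGG, a purine, any base, 3 pyrimidines and CC, and matches are in capitals. The 250 bases before the start are printed 5′ to 3′ on the gene's strand, which is the plus strand of chromosome 5 for all 4, at chr5:90890995-90891244 (Cxcl1), chr5:90903649-90903898 (Cxcl2), chr5:90785851-90786100 (Cxcl3) and chr5:30012864-30013113 (Il6).
Cxcl1: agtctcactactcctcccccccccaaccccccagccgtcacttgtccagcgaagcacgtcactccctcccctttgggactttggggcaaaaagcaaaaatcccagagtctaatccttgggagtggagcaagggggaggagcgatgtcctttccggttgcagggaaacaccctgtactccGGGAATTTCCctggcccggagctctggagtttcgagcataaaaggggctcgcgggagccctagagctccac
Cxcl2: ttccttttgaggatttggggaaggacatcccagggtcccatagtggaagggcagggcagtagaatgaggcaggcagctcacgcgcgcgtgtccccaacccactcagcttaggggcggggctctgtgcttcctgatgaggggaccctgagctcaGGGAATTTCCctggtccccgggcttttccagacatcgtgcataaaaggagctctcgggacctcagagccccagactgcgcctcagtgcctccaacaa
Cxcl3: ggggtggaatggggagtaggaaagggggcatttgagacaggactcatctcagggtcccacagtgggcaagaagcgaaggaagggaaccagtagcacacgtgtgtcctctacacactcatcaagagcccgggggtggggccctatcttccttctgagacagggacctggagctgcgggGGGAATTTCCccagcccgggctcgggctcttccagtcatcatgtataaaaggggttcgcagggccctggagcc
Il6: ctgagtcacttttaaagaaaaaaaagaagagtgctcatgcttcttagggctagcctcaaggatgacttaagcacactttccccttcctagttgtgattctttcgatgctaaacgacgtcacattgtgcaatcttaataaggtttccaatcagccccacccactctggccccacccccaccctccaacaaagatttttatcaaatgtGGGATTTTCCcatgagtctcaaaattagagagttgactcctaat

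Cxcl1, Cxcl2 and Cxcl3 held the same 10 bases, GGGAATTTCC, starting 71, 97 and 73 bases before the start, and Il6 held GGGATTTTCC starting 44 bases before it. Csf1 had a match on the opposite strand, and Csf2 and Lif had none in these windows. In all, 5 of 7 promoters matched, where 5.80% of 32851 promoters of the same length did. The promoters of Cxcl1, Cxcl2 and Cxcl3 were identical at 71.5% to 72.8% of their aligned bases in pairs. A match is a description of the letters, and binding was not measured.

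Cxcl2 was below background in all 67NR tumours, at 4.28, 4.77 and 4.03. It was 6.99, 8.83 and 6.20 in 66cl4 and 6.82, 7.64 and 7.73 in 4T1. Both of these lines lay above 67NR with no overlap, and 66cl4 spanned a wider range than 4T1. Because all 67NR values were at background, the fold is a bound, taken as the mean of the brighter line over the background of the dimmer line. Cxcl2 was at least 5.49-fold higher in 4T1 than in 67NR (adjusted p = 0.00197) and at least 5.27-fold higher in 66cl4 than in 67NR (adjusted p = 0.00257). The fitted 66cl4 minus 67NR difference was 2.98 ± 0.56 over all arrays and 2.23 without 66cl4 replicate 2. Between 4T1 and 66cl4 the difference was 0.057 with an interval from -1.20 to 1.31, wide enough to hold more than a doubling either way.

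Cxcl3 was far below background in 67NR, at 3.00, 3.11 and 2.68. It was 7.12, 7.57 and 7.65 in 66cl4, and in 4T1 it was 4.25, 5.32 and 7.18. The 66cl4 tumours were close together, whereas the 4T1 tumours ranged from background to within the range of 66cl4. Cxcl3 was at least 5.68-fold higher in 66cl4 than in 67NR (adjusted p = 0.000271) and at least 1.56-fold higher in 4T1 than in 67NR (adjusted p = 0.00464). The second bound leans on 4T1 replicate 3, at 7.18, since replicate 1 was below background. The p-values are those of the fitted differences, which take the 67NR values below background as they read. The fitted 4T1 minus 67NR difference was 2.65 ± 0.57, and it was 1.86 without 4T1 replicate 3 and 3.32 without 4T1 replicate 1. The 4T1 minus 66cl4 difference of -1.86 ± 0.57 (adjusted p = 0.0262) was not past the threshold without 4T1 replicate 1, when it was -1.19 (adjusted p = 0.0596), and it was -2.66 without 4T1 replicate 3. It also missed the threshold without 4T1 replicate 2 (adjusted p = 0.0735), 66cl4 replicate 2 (adjusted p = 0.0695) or 66cl4 replicate 3 (adjusted p = 0.0735). The same held in a fit of the 2 lines alone (adjusted p = 0.0608) and with the hybridization controls as a covariate (adjusted p = 0.108).

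Cxcl5, a chemokine made mainly by epithelial and stromal cells, was 8.93, 9.21 and 8.89 in 66cl4, 7.89, 7.91 and 8.07 in 67NR, and 6.27, 7.01 and 7.50 in 4T1. No value of 1 line reached into another line's range, so the order was 66cl4, then 67NR, then 4T1. The difference was 1.06 ± 0.25 for 66cl4 minus 67NR (adjusted p = 0.00965), -1.03 ± 0.25 for 4T1 minus 67NR (adjusted p = 0.00958) and -2.08 ± 0.25 for 4T1 minus 66cl4 (adjusted p = 0.000163). The line highest in Csf3 was thus lowest in Cxcl5.

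The main probe set of Cxcl1 spanned a smaller range over the lines than those of the other 3 chemokines. It read 8.94, 8.96 and 9.40 in 4T1, 8.69, 8.64 and 8.59 in 67NR, and 8.39, 8.10 and 8.17 in 66cl4. The lines did not overlap, and the differences were 0.46 ± 0.14 for 4T1 minus 67NR (adjusted p = 0.0246), -0.42 ± 0.14 for 66cl4 minus 67NR (adjusted p = 0.0407) and 0.88 ± 0.14 for 4T1 minus 66cl4 (adjusted p = 0.000786). The first of these was 0.31 (adjusted p = 0.0556) without 4T1 replicate 3. It also missed the threshold without 67NR replicate 2 (adjusted p = 0.0651) or 67NR replicate 3 (adjusted p = 0.0728), and after quantile normalization (adjusted p = 0.0605). The second missed it when any 67NR replicate, or 66cl4 replicate 2 or 3, was left out (adjusted p from 0.0756 to 0.129). The suffix of this probe set (_x_at) marks probes that may also read other transcripts. The other 2 probe sets gave the same order with larger differences. For 4T1 minus 67NR they gave 1.49 (adjusted p = 0.000342) and 1.29 (adjusted p = 0.000797), and for 4T1 minus 66cl4 they gave 2.37 and 1.94, with p-values adjusted over all probe sets tested.

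In the chromosome 5 cluster the gene order is Cxcl5, Ppbp, Pf4, Cxcl3, Cxcl15, Cxcl1 and Cxcl2. The first 3 of these had their highest mean in 66cl4 and their lowest in 4T1, although Ppbp was close to background, and the genes after them had other orders. Pf4, which encodes a platelet and macrophage chemokine, had mean signals of 10.22 in 67NR, 11.77 in 66cl4 and 9.29 in 4T1. It was higher in 66cl4 than in 67NR by 1.55 (adjusted p = 0.0144). That difference was 1.37 without 67NR replicate 1 (adjusted p = 0.0560) and 0.95 with the scan number as a covariate of the limma fit (adjusted p = 0.184). Next to Pf4, Cxcl3 had means of 2.93, 7.45 and 5.58, and Cxcl1 had means of 8.64, 8.22 and 9.10. Cxcl15, between Cxcl3 and Cxcl1, was not above background on any 67NR array and did not enter the test.

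**Figure D3:**
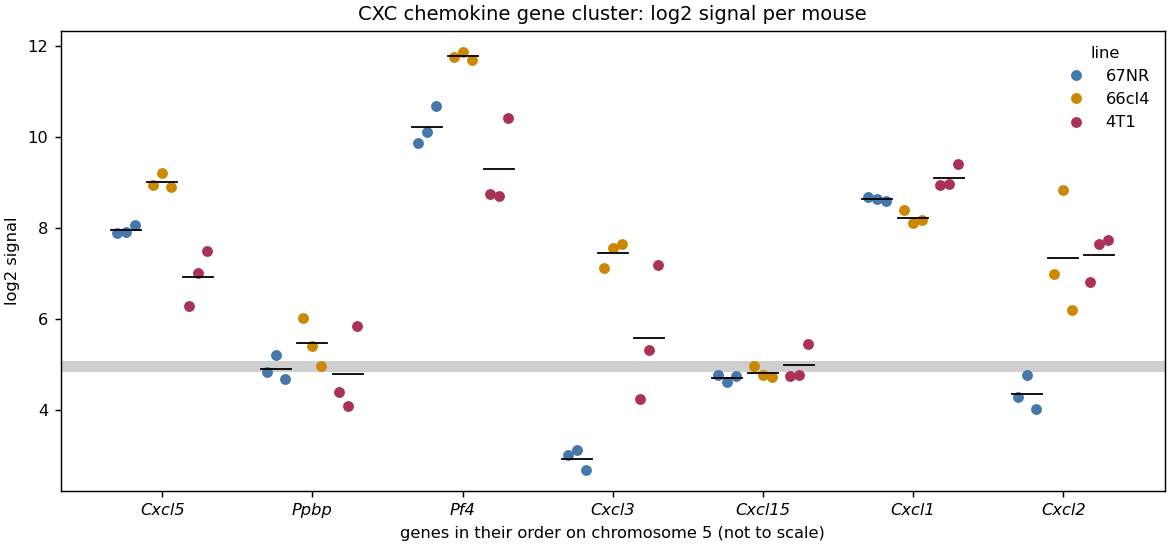
Log2 signal of the 7 chemokine genes of the chromosome 5 cluster, in their order along the chromosome, with 1 point per mouse, a line at the mean of 3 mice and the background range in grey. The means of Cxcl3 and Cxcl2 rose from background in 67NR (2.93 and 4.36) to 7.45 and 7.34 in 66cl4, while Cxcl5 was highest in 66cl4 (9.01) and lowest in 4T1 (6.93).

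Of the gp130 cytokines, Il6 was highest in 67NR. It was 7.12, 7.17 and 6.91 there, 5.02, 6.07 and 6.35 in 4T1, and 3.69, 4.05 and 3.17 in 66cl4. All 66cl4 values were below background and all 4T1 values above it, and the 3 lines did not overlap. Il6 was at least 4.47-fold lower in 66cl4 than in 67NR (adjusted p = 4.52e-05) and at least 1.87-fold higher in 4T1 than in 66cl4 (adjusted p = 0.000530). The 4T1 minus 67NR difference was -1.26 ± 0.32 (adjusted p = 0.0114). Mast cells are a known source of IL6. All 8 mast cell markers were lower in both other lines than in 67NR. Of all genes, 16% were lower in 66cl4 and 20.5% in 4T1. The summed log2 signal of these markers was 14.03 to 14.54 in 67NR, 8.76 to 9.23 in 66cl4 and 8.28 to 8.96 in 4T1. Fcer1a and Ms4a2 were at background in 66cl4 and 4T1. These 2 passed the filter on dim genes through the 3 arrays of 67NR alone, so they had to differ. The part of mast cells in the level of Il6 was not tested. Between 4T1 and 66cl4, no mast cell marker was higher in 4T1 and 2 of 8 were lower, where 23.4% of all genes were. The 2 became 1 without 66cl4 replicate 2, 66cl4 replicate 3, 4T1 replicate 2 or 4T1 replicate 3.

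Lif, which encodes leukaemia inhibitory factor, was highest in 4T1, at 7.82, 8.51 and 8.51. It was 5.76, 6.57 and 6.40 in 67NR and 5.25, 5.33 and 5.23 in 66cl4. The lines did not overlap, and the 66cl4 values, although above background, spanned 0.1 at most. The differences were 2.04 ± 0.23 for 4T1 minus 67NR (adjusted p = 0.000111), 3.01 ± 0.23 for 4T1 minus 66cl4 (adjusted p = 9.06e-06) and -0.97 ± 0.23 for 66cl4 minus 67NR (adjusted p = 0.00967). The second Lif probe set lay between 3.58 and 4.38 on all arrays and was not tested. The 2 cytokines that share gp130 thus had opposite directions between 4T1 and 67NR and the same direction in the other comparisons.

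The 67NR arrays were set apart by scan number, and their hybridization controls were higher on average but overlapped with those of 66cl4. The 4T1 minus 67NR results depended on whether either was modelled. With the scan number as a covariate the calls of Csf3 (difference 5.20, adjusted p = 9.11e-05) and Lif (2.01, adjusted p = 0.0147) remained. The other 6 missed the threshold: Csf2 at an adjusted p of 0.0785, Cxcl1 at 0.947, Cxcl2 at 0.0906, Cxcl3 at 0.256, Cxcl5 at 0.0605 and Il6 at 0.0517. The difference of Cxcl1 was then 0.019, and that of Cxcl3 1.66. With the hybridization controls as a covariate Csf3 and Lif again remained and the same 6 did not. In 4T1 minus 66cl4, whose scan numbers overlap, all 8 calls remained with the scan number, and with the hybridization controls 7 did, without Cxcl3 (adjusted p = 0.108). In 66cl4 minus 67NR those of Cxcl5 (adjusted p = 0.108) and Lif (adjusted p = 0.0584) were lost with the scan number, and that of Lif (adjusted p = 0.0526) with the hybridization controls.

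Within the 4T1 line, replicate 1 was the lowest 4T1 tumour for 7 of the 9 genes, against 30.4% of all genes tested, and for 5 of them (Cxcl1, Cxcl2, Cxcl3, Cxcl5 and Il6) replicate 3 was also the highest, against 16.5%. Csf1 and Csf2 were lowest in replicate 2. Several other measures were also lowest in replicate 1, and some were highest there. The mean log2 signal of the epithelial markers was 10.13, 9.88 and 9.99 in replicates 1, 2 and 3, and that of the mast cell markers 5.54, 4.93 and 5.31. In replicates 1, 2 and 3, the mean log2 signal of the neutrophil markers was 7.15, 7.38 and 7.59, that of the macrophage markers 9.39, 9.64 and 9.77, and that of the fibroblast markers 9.53, 10.81 and 9.87. Il1b was 9.76, 10.09 and 10.24, Il1a was 6.00, 7.95 and 7.79, and the hybridization controls were 10.30, 10.72 and 10.37, the last 2 with their highest value in replicate 2. Their part in the spread was not tested. In 66cl4, replicate 2 was the highest tumour for 6 of the 9 genes (Csf1, Csf2, Cxcl2, Cxcl5, Il6 and Lif), against 35.3% of all genes. The genes of 1 tumour are not replicates of each other, so these counts carry no test.

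**Figure D4:**
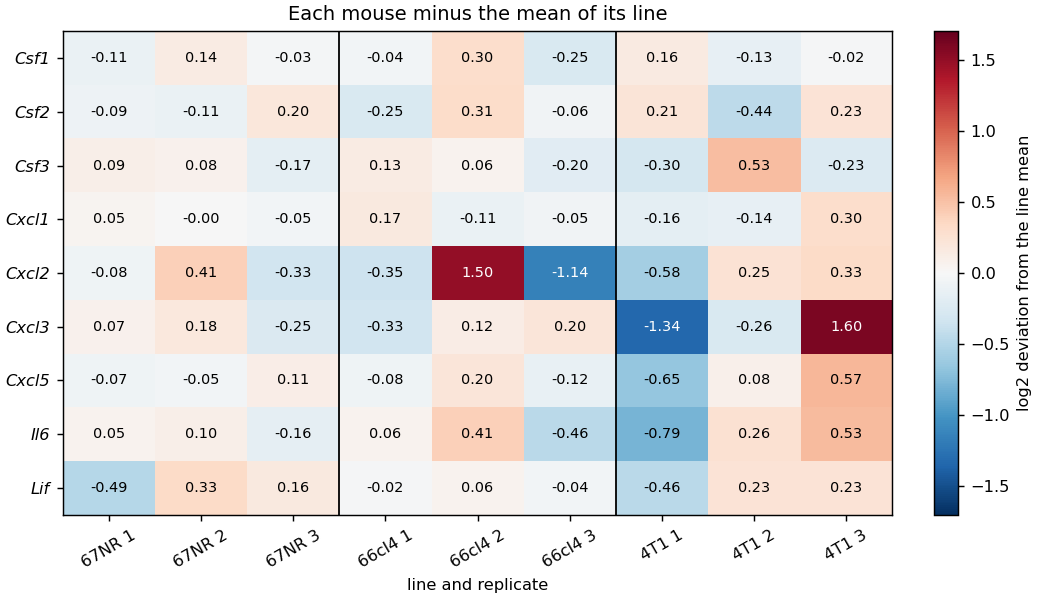
Deviation of each gene's log2 signal from the mean of its own line, for the 9 arrays (columns), with positive deviations in red and negative ones in blue. In 4T1 the column of replicate 1 was negative for Csf3, Lif, Il6 and all 4 chemokines, and in 66cl4 Cxcl2 was above its line mean by 1.5 in replicate 2.

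Some receptors had the direction of their ligands and others did not, and no test of such a relation was made. Of 11 receptor genes tested, 1 was higher and 5 were lower in 4T1 than in 67NR, 0 higher and 3 lower in 66cl4 than in 67NR, and 3 higher and 4 lower in 4T1 than in 66cl4. That is 6, 3 and 7 of 11, where in the same order 39.9%, 36.1% and 41.3% of all genes were called in either direction. The median differences were -0.40, -0.13 and -0.22, beside medians of -0.025, 0.0080 and -0.026 over all genes. With the scan number as a covariate the first count became 0 higher and 3 lower. Cxcr1 was not measured on a probe set of its own here.

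Csf3r, the receptor for CSF3 on neutrophils, was 8.41, 8.10 and 8.11 in 67NR, 7.70, 8.0 and 7.92 in 66cl4, and 7.96, 8.18 and 8.15 in 4T1. The 4T1 tumours overlapped with both other lines, and those of 66cl4 were below those of 67NR. The 4T1 minus 67NR difference was -0.11 with an interval from -0.40 to 0.17 (adjusted p = 0.530), and that of 66cl4 minus 67NR was -0.34 (adjusted p = 0.0662, and 0.0384 after quantile normalization). Cxcr2, the receptor of the 4 chemokines, was close to background in all lines, with means of 5.39 ± 0.30 (SD, n = 3) in 67NR, 5.78 ± 0.20 in 66cl4 and 5.82 ± 0.33 in 4T1. Its 4T1 minus 67NR difference of 0.43, with an interval from -0.02 to 0.88, missed the threshold (adjusted p = 0.117) but passed it without 67NR replicate 2 (adjusted p = 0.0470).

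Csf1r, the CSF1 receptor of macrophages, was 13.18, 12.79 and 12.64 in 67NR, 12.49, 12.74 and 13.00 in 66cl4, and 11.50, 11.64 and 11.72 in 4T1. The 4T1 tumours were below all others, by 1.25 against 67NR (difference -1.25, adjusted p = 0.000300) and by 1.12 against 66cl4 (difference -1.12, adjusted p = 0.000553). The 66cl4 minus 67NR difference of Csf1r was -0.13 (adjusted p = 0.597), where that of its ligand Csf1 was 1.40. In 4T1 the macrophage markers moved with Csf1r, which is itself on that list: 10 of 12 were lower than in each other line and 0 were higher. Of all genes, 20.5% were lower in 4T1 than in 67NR and 23.4% than in 66cl4. Between 66cl4 and 67NR, where Csf1r was not called, 5 of 12 macrophage markers were higher in 66cl4 (20% of all genes) and 1 lower (16%). The 5 ranged from 3 to 5 with 1 array left out. The summed log2 signal of these markers was 14.14 to 14.24 in 4T1, 15.05 to 15.30 in 67NR and 15.12 to 15.56 in 66cl4. Their part in the result was not tested.

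The shared beta chain of the CSF2 receptor, Csf2rb, was lower in 66cl4, with means of 10.57 in 67NR, 9.39 in 66cl4 and 10.12 in 4T1. It differed by -1.19 for 66cl4 minus 67NR (adjusted p = 0.000273) and by 0.73 for 4T1 minus 66cl4 (adjusted p = 0.00369). The call of the 4T1 minus 67NR difference of -0.46 (adjusted p = 0.0361) was lost with the mean of the gene's probe sets, when it was -0.25. It was also lost with either covariate, with a replicate block (adjusted p = 0.0551), and without 4T1 replicate 3 or any 67NR replicate. The close relative of Csf2rb, Csf2rb2, the IL3-specific beta chain of mice, had the same order, with differences of -1.23 and 0.82 (adjusted p = 0.000198 and 0.00164). Csf2ra, the alpha chain that binds CSF2, was called in 1 comparison, 4T1 minus 66cl4, at -0.80 (adjusted p = 0.0467), which was lost without the filter on dim genes (adjusted p = 0.0561), in a fit of the 2 lines alone (adjusted p = 0.0876), with either covariate, and without any of 6 of the 9 arrays.

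The main probe sets of Lifr, Il6ra and Il6st were lower in 4T1 than in 67NR, and that of Osmr was higher. Lifr, the LIF receptor, was 6.24, 6.46 and 6.37 in 4T1, 8.23, 8.05 and 8.13 in 67NR, and 8.43, 8.32 and 9.28 in 66cl4. It was lower in 4T1 by 1.78 against 67NR (difference -1.78, adjusted p = 0.000170) and by 2.32 against 66cl4 (difference -2.32, adjusted p = 3.04e-05), so Lif and Lifr had opposite directions between 4T1 and both other lines. Il6ra, the IL6 receptor, was lower in 4T1 than in 67NR (difference -1.14, adjusted p = 0.00125) and 66cl4 (difference -1.18, adjusted p = 0.000946), but its other probe set was not called in these comparisons. Il6st, which encodes gp130, differed by -0.81 for 4T1 minus 67NR (adjusted p = 0.0116), a call lost with the scan number (adjusted p = 0.0781) or the hybridization controls (adjusted p = 0.162) as a covariate. Osmr, a gp130 partner that binds oncostatin M, was higher in 4T1 than in 66cl4 by 1.98 (adjusted p = 0.000406). Its 4T1 minus 67NR difference of 1.10 (adjusted p = 0.0112) was 0.23 with the scan number and 0.15 with the hybridization controls as a covariate, and was past the threshold with neither covariate. Ackr1, a chemokine scavenger of vessels and red cells, was called in no comparison, with means of 5.72, 5.88 and 5.65.

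**Figure D5:**
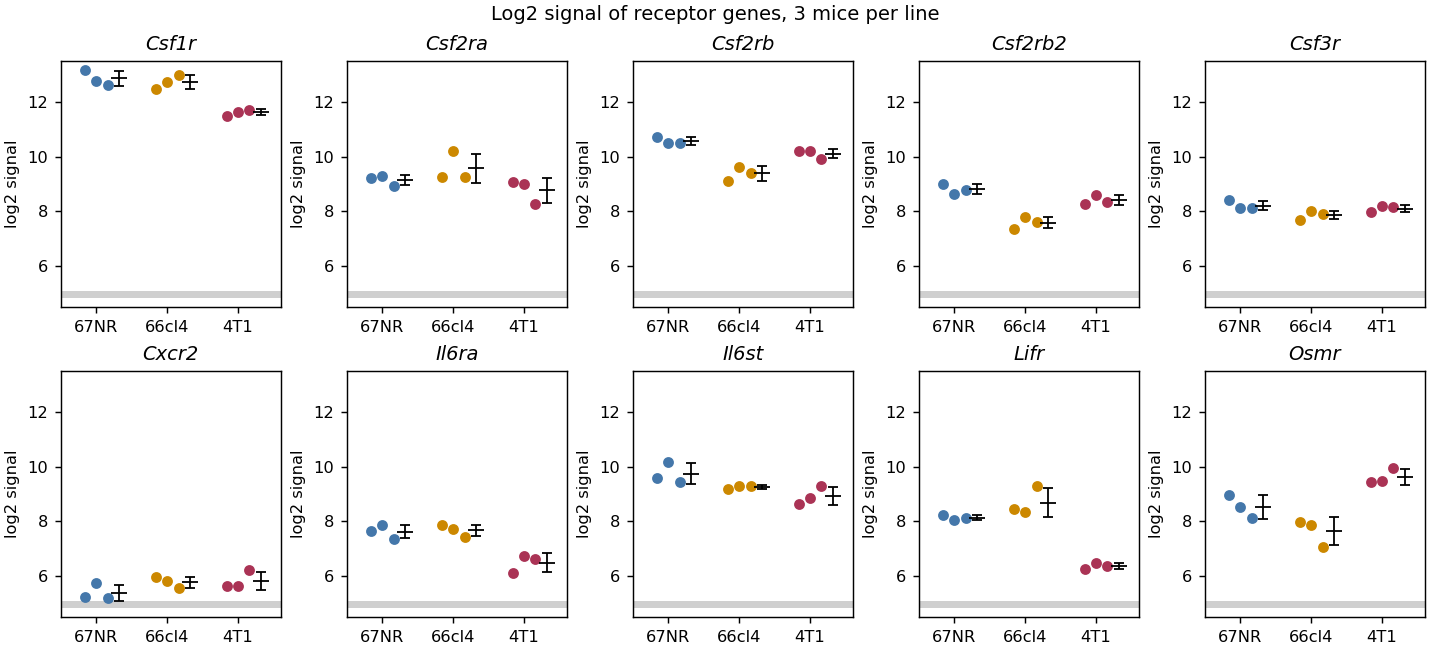
Log2 signal of 10 receptor genes in the tumours of each line, with 1 point per mouse, the mean and SD of 3 mice beside the points, and the background range in grey. Csf1r, Il6ra and Lifr were lowest in 4T1, Csf2rb and Csf2rb2 were lowest in 66cl4, and Csf3r lay between 7.70 and 8.41 on all 9 arrays.

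Among related growth factors and other ligands of these receptors, 3 of 8 tested genes were higher and 3 lower in 4T1 than in 67NR, 2 higher and 3 lower in 66cl4 than in 67NR, and 4 higher and 1 lower in 4T1 than in 66cl4, where 39.9%, 36.1% and 41.3% of all genes were called in either direction. Without 67NR replicate 2 the 3 lower in 4T1 than in 67NR became 1, and the 2 higher in 66cl4 became 1 without 67NR replicate 2 or 3 or 66cl4 replicate 1 or 2. Il34, the other ligand of Csf1r, was highest in 67NR, with means of 7.45, 6.36 in 66cl4 and 6.96 in 4T1. Il11, a gp130 cytokine, was higher in 4T1 by 1.08 against 67NR (adjusted p = 0.00114, and 0.0608 with the scan number as a covariate) and by 1.16 against 66cl4 (adjusted p = 0.000733). Ctf1, another gp130 cytokine, was also higher in 4T1, by 0.89 and 0.51 (adjusted p = 0.000611 and 0.0125). Kitl, the ligand of KIT and the main survival factor of mast cells, was lower in 66cl4 and 4T1 than in 67NR by 2.07 and 2.42 (differences -2.07 and -2.42, adjusted p = 0.00611 and 0.00221).

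Of the cytokines known to induce these genes and their receptors, 6 of 13 were higher and 2 lower in 4T1 than in 67NR, 2 higher and 3 lower in 66cl4 than in 67NR, and 5 higher and 0 lower in 4T1 than in 66cl4. Beside these counts, 39.9%, 36.1% and 41.3% of all genes were called in either direction. The 5 became 3 without 4T1 replicate 3. Il1a was at background in all 67NR and 66cl4 tumours and at 6.00, 7.95 and 7.79 in 4T1. It was at least 4.95-fold higher in 4T1 than in 67NR and at least 5.06-fold higher than in 66cl4. Il1a passed the filter on dim genes through the 3 arrays of 4T1 alone, so it had to differ, and its place in the counts above is no support for them. Il1b had means of 8.42 in 67NR, 7.64 in 66cl4 and 10.03 in 4T1, a difference of 1.61 from 67NR (adjusted p = 0.00172) and of 2.39 from 66cl4 (adjusted p = 0.000157). Il1b was thus highest in 4T1, as were Csf2, Csf3, Cxcl1 and Lif. Csf1, Cxcl3 and Cxcl5 were highest in 66cl4 and Il6 in 67NR, and Cxcl2 was not called between 4T1 and 66cl4. The part of IL-1 in these levels was not tested. Il1rn, the antagonist of the IL-1 receptor, was higher in both 66cl4 and 4T1 than in 67NR, by 2.05 and 1.84 (adjusted p = 0.00152 and 0.00234), as was Il17ra, by 0.88 and 0.89 (adjusted p = 0.000363 and 0.000273). Tnf was higher in 4T1 by 0.44 and 0.40 (adjusted p = 0.00717 and 0.0109).

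Of 14 tested transcription factors and mRNA regulators of these genes, 8 were higher and 1 lower in 4T1 than in 67NR, 3 higher and 1 lower in 66cl4 than in 67NR, and 7 higher and 2 lower in 4T1 than in 66cl4. Beside these counts, 39.9%, 36.1% and 41.3% of all genes were called in either direction. The 7 became 4 without 4T1 replicate 2 or 66cl4 replicate 3, and the 2 became 0 without 4T1 replicate 3, 66cl4 replicate 1 or 66cl4 replicate 2 and 1 without 67NR replicate 2, 66cl4 replicate 3, 4T1 replicate 1 or 4T1 replicate 2. Tnfaip3, an NF-κB target that restrains the pathway, was 9.96, 10.30 and 10.03 in 4T1, 7.36, 7.43 and 6.67 in 67NR, and 7.87, 8.01 and 7.80 in 66cl4. It was higher in 4T1 by 2.94 against 67NR (adjusted p = 3.26e-06) and by 2.20 against 66cl4 (adjusted p = 1.97e-05). Junb, a subunit of AP-1, was higher in 4T1 by 2.41 and 2.21 (adjusted p = 2.88e-06 and 4.77e-06). Nfkbiz, a nuclear cofactor needed for Il6 and Csf3 induction in several cell types, was higher by 1.14 and 1.15 (adjusted p = 0.00162 and 0.00148), the first being 0.0648 with the hybridization controls as a covariate. Ets2, an ETS-family transcription factor, was higher by 0.93 and 1.57 (adjusted p = 0.00271 and 0.000116), the first being 0.112 with that covariate. Nfkb2 was higher in 4T1 and in 66cl4 than in 67NR by 0.79 and 0.80 (adjusted p = 0.00167 and 0.00177), but its other probe set was not called (differences -0.23 and -0.020). Fosl1, another AP-1 subunit, was lower in 4T1 than in 67NR and 66cl4 (differences -0.92 and -0.99, adjusted p = 0.0304 and 0.0219), and each call was lost when any of 4 arrays was left out.

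A further list holds 9 genes: Stat3, Stat5a and Stat5b, whose products these cytokines and factors activate, and genes that respond to them. Of these, 3 were higher and 0 lower in 4T1 than in 67NR. In 66cl4 0 were higher and 3 lower than in 67NR, Stat5b itself among the 3. Between 4T1 and 66cl4, 5 were higher and 0 lower in 4T1. Beside these counts, 39.9%, 36.1% and 41.3% of all genes were called in either direction, so the first 2 counts were near the share of all genes. The 5 became 3 without 4T1 replicate 2, 4T1 replicate 3 or 66cl4 replicate 1. Cish, a STAT5 target, was 8.40, 9.30 and 10.08 in 4T1, 7.17, 6.70 and 6.97 in 67NR, and 6.66, 6.30 and 6.26 in 66cl4. It was higher in 4T1 by 2.85 against 66cl4 (adjusted p = 0.000153) and by 2.31 against 67NR (adjusted p = 0.000563), the latter being 1.40 and past the threshold no longer with the scan number (adjusted p = 0.0867). Socs2, another STAT5 target, was low in 66cl4 alone, with means of 8.70 in 67NR, 5.87 in 66cl4 and 8.79 in 4T1. Pim1, a kinase gene induced by both factors, was higher in 4T1 by 0.95 against 67NR (adjusted p = 0.00569) and by 1.47 against 66cl4 (adjusted p = 0.000464). Of 32 calls in 4T1 minus 67NR over the receptor, ligand, inducer, regulator and STAT lists, 14 remained with the scan number and 13 with the hybridization controls as a covariate. Those of Csf1r, Il6ra, Lifr, Kitl, Il1a, Il1b, Il17ra, Nfkb2, Relb, Tnfaip3 and Junb remained with both, and 16 remained with neither, among them those of Il6st, Il1rn, Tnf, Ctf1, Fosl1 and Pim1.

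Markers of neutrophils, the cells on which CSF3 and the 4 chemokines act, were in part higher in 4T1. Of 13 tested, 7 were higher and 0 lower than in 67NR, and 7 higher and 1 lower than in 66cl4. In 66cl4 against 67NR 1 was higher and 0 lower. Of all genes, 19.4%, 17.9% and 20% were higher in these comparisons. Csf3r and Cxcr2 are on this list and were called in no comparison of the main fit. The 7 markers higher in 4T1 than in 66cl4 became 3 without 4T1 replicate 3, and the 1 in 66cl4 against 67NR became 3 without 66cl4 replicate 3. The summed log2 signal of the neutrophil markers was 12.63 to 13.14 in 4T1, 11.08 to 11.85 in 67NR and 11.11 to 12.07 in 66cl4. Mpo, a gene of immature granulocytes, was at background in all lines, and so was Mmp8 in 67NR. S100a8, an abundant neutrophil transcript named here after its values were seen, was 11.43, 10.75 and 11.29 in 4T1, 9.57, 10.84 and 9.41 in 67NR, and 9.86, 10.01 and 7.92 in 66cl4, so that a 67NR tumour reached into the 4T1 range. Neutrophils also make Il1b and Cxcl2, and epithelial cells can make Csf3. The part of either cell type was not tested. Of 9 epithelial markers, 8 were higher in 4T1 than in each other line. Of all genes, 19.4% were higher than in 67NR and 17.9% than in 66cl4. Cdh1 and Esrp1 passed the filter on dim genes through the 3 arrays of 4T1 alone, so they had to differ. Against 66cl4 the count of 8 became 5 without 4T1 replicate 1 or 4T1 replicate 3. The summed log2 signal of the epithelial markers was 14.68 to 14.89 in 4T1, 8.90 to 9.09 in 67NR and 12.86 to 13.22 in 66cl4.

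Other cell types differed between the lines as well. Fibroblast markers had 5 of 8 higher and 2 lower in 4T1 than in 67NR, where 19.4% and 20.5% of all genes were. In 66cl4 4 were higher and 1 lower than in 67NR (20% and 16% of all genes). In 4T1 4 were higher and 1 lower than in 66cl4 (17.9% and 23.4%). Their summed log2 signal was 13.60 to 15.01 in 4T1, 12.77 to 13.25 in 66cl4 and 12.34 to 12.55 in 67NR. All 8 endothelial markers were lower in 66cl4 and in 4T1 than in 67NR (summed log2 signal 10.10 to 10.43, 10.64 to 10.88 and 12.00 to 12.43). Of all genes, 16% were lower in 66cl4 and 20.5% in 4T1. All 8 markers of T and NK cells were lower in 66cl4 than in 67NR, where 16% of all genes were. In 4T1 2 of 8 were lower than in 67NR, where 20.5% of all genes were. The 3 B cell markers tested were called in no comparison. The part of any of these cell types in the levels of the 9 genes was not tested.

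The genes whose profiles over the 9 arrays lay nearest to each of the 9 were found by the root mean square (RMS) difference of centred log2 signals over all genes tested. Csf3 was nearest to Dmrta2 (RMS 0.28), Serinc2 (0.34) and Cdcp1 (0.35). Lif was nearest to Myb (0.33), Il1b (0.35) and Sesn3 (0.35), and Csf2 to Ahr (0.19), Ssh3 and Kifc3. These profiles shared a high level in 4T1. Cxcl2 was nearest to Col14a1 (0.45), Il1rn (0.61) and Clec4e (0.62), and Cxcl3 to Arhgap6 (0.81), Irs1 and Dynap, the largest of the 9 nearest distances. Cxcl5 was nearest to Gda (0.22), Dhrs3 and Alox5, Csf1 to Efnb2 (0.15), Erc2 and Srl, Il6 to Igfbp3 (0.22), Ms4a4d (0.29) and Cpt1c (0.42), and Cxcl1 to Rnf217 (0.057), Oas1b and Smc3. A gene with small differences between lines, such as Cxcl1, has a small RMS difference to many genes.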

How the data were processed

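Total RNA from laser-captured tumour tissue of 9 mice was measured on Affymetrix mouse arrays of 45101 probe sets, 1 array per mouse. The authors deposited log2 signals. Per the labels, no method of summary or normalization is stated (not given in the sources used here). No further normalization was applied. Of the probe sets, 34958 had 1 gene in the platform annotation, 932 had several and were not named, and 9211 were not named in it. Symbols were updated through Entrez identifiers to RefSeq GRCm38.p6, where 34754 matched. The main value of a gene was its probe set with the highest mean. A gene was tested where it was above the 40th percentile of the array on at least 3 arrays (13409 of 18193 genes, and 4784 were not tested). Differences between lines were fitted with limma 3.58.1 in R 4.3.3 over all 9 arrays (lmFit and eBayes, 6 residual and 3.63 prior degrees of freedom), with Benjamini-Hochberg adjustment and a threshold of 0.05. The 3 mice of a line are separate animals, and their number limits the precision. The fit was tested on simulated data. Alternatives were another choice of probe set, other filters, quantile normalization, a replicate block, covariates, a fit of 2 lines alone, and leaving out each array.

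Where all 3 arrays of a line were at or below background, a fold is a bound against background. The genes named were the 9 genes with all probe sets, of each pathway list the called genes with the smallest p-values, every receptor, the 3 nearest profiles of each of the 9, and markers at background. The 9 genes and all lists were chosen with earlier results of these data known, so counts over them are descriptions. The chromosome order and the promoters come from RefSeq tables of the GRCm38.p6 build. Other ligands and markers that had no probe set of their own, or were too dim to test, were left out of the counts.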

Additional observations from a re-analysis of the deposited data

How the results depend on the processing

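Across 498 alternative values for the 9 genes, the results most open to change were those of 4T1 against 67NR. The number of genes called there was 5347, and 2661 with the scan number and 2151 with the hybridization controls as a covariate, while the count among the 9 genes went from 8 to 2 under each. The cause was not tested: 67NR arrays have scan numbers above all others, so line and scan cannot be told apart fully. Differences near 0 changed sign. Cxcl2 in 4T1 minus 66cl4 was -0.022 with the scan number and -0.14 with the hybridization controls, and ran from -0.51 to 0.80 with 1 array left out. Csf1 in 4T1 minus 67NR ran from -0.12 to 0.027. Cxcr2 was -0.14 in 4T1 minus 67NR and -0.16 in 4T1 minus 66cl4 with the scan number, and -0.12 in the latter with the hybridization controls and -0.15 to 0.15 with 1 array left out. Leaving out arrays, genes called ranged from 4348 to 5192 for 4T1 minus 67NR, from 3726 to 5226 for 66cl4 minus 67NR and from 4564 to 5392 for 4T1 minus 66cl4, and calls among the 9 genes from 7 to 8, 6 to 7 and 7 to 8. Replicate numbers did not pair the mice: same-numbered deviations correlated at -0.11 to 0.16, and 2 of 9 pairs were over 0.1. With a replicate block 8, 6 and 8 of the 9 genes and 5057, 4503 and 5179 genes in all were called, and Cxcl1 in 66cl4 minus 67NR had an adjusted p of 0.0626.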
